A study of Mus musculus with 9 samples.

Results

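Prnd and Prnp, the genes of doppel and of the cellular prion protein, were followed in the right ventricle of mice given monocrotaline. They are 2 of the 18820 genes that a probe set of their own measured in these arrays, and each had 1 such probe set. Prnd was chosen by its measured values, as the gene with the largest log2 rise in MCT over sham mice, so its values in that comparison are given as a description, with no test. Prnp was taken as its relative. RNA of 9 female C57BL/6 mice was hybridised to Affymetrix mouse gene 1.1 ST arrays, 1 array per mouse. The MCT+NI group (mice 615, 617 and 619) received monocrotaline and a diet with the same calories but more protein, leucine, oligosaccharides and fish oil. The MCT group (640, 641 and 644) received monocrotaline and the standard AIN-93M diet, and the sham group (620, 624 and 625) received saline and the standard diet. Monocrotaline (MCT), a plant alkaloid whose metabolites injure the pulmonary vessels and load the right ventricle, was given under the skin once a week at 600 mg/kg for 8 weeks from the age of 10 weeks. There was no group with the nutritional intervention (NI) and without MCT, and per the methods the mice put on arrays had been selected to have disease of like severity.

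Doppel and the prion protein are small glycoproteins that a glycosylphosphatidylinositol (GPI) anchor holds on the outer face of the cell. Their folded domains are alike, but doppel lacks the copper-binding octapeptide repeats of the prion protein. Prnp is active in most tissues and most of all in neurons, whereas Prnd in the adult mouse is best known from the testis, where sperm function needs it. In the newborn mouse brain Prnd has been found in the endothelium of growing vessels, and in the endothelium of tumours doppel has been described as a partner of the receptor VEGFR2. The genes lie next to each other on chromosome 2, in the same orientation. RefSeq also annotates a gene named Prn, which begins at the start of Prnp and ends at the end of Prnd, and which no probe set of its own measured. The probe set of Prnd therefore could not tell transcripts that begin at Prnd from those that begin at Prnp.

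The windows around the starts of both genes are shown so that the starts of this pair of neighbours can be read side by side. Each runs from 250 bases before to 50 bases after the start that RefSeq gives (GRCm38.p6, forward strand). The window of Prnd is chr2:131950611-131950910 and that of Prnp chr2:131909678-131909977. Capitals mark every match, on either strand, to the GC box core GGGCGG, to the motif CCAAT, to the motif TATAAA and to the motif TATATA. These motifs were picked with the windows in view, and no matches overlapped.
Prnd: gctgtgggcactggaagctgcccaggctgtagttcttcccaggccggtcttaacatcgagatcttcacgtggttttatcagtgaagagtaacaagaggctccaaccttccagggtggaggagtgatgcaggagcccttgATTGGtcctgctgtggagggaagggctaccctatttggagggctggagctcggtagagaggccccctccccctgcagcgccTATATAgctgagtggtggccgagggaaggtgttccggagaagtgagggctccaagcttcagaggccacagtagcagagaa
Prnp: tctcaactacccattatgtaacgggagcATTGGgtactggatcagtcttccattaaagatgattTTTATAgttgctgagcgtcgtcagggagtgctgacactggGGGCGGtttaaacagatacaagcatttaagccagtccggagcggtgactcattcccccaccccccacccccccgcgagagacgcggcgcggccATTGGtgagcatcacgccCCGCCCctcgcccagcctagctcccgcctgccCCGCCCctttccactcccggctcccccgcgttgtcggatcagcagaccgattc
The window of Prnp held 22 CpG dinucleotides and that of Prnd 7, against a median of 7 over 32817 windows of this length. Prnp had 3 matches to GGGCGG, and Prnd had 0 (35.6% of the windows hold 1 or more). CCAAT was matched at 2 places in Prnp and 1 in Prnd (37.4% of windows). Prnd had 1 match to TATATA, whose first base lies 30 bases before the start (5.67% of windows), and Prnp had 1 match to TATAAA, 186 bases before the start (13.6% of windows). RefSeq lists a further start for Prnd within its gene, whose window overlaps the one printed. A match describes the letters only and was not tested for a factor.

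The transcript level of Prnd was much higher in both groups given MCT than in sham mice, by 20.8-fold in MCT+NI and 21.0-fold in MCT mice. Log2 intensities of 10.08, 9.69 and 9.83 were measured in MCT+NI mice 615, 617 and 619. They were 9.99 in MCT mouse 640, 10.07 in 641 and 9.57 in 644, and 5.50 in sham mouse 620, 5.34 in 624 and 5.61 in 625. All 6 MCT-injected mice were thus high and the 3 sham mice low, and the lowest MCT mouse lay 3.97 above the highest sham mouse on the log2 scale. MCT and sham mice failed to overlap in 21.9% of all genes. Group means were 9.87 ± 0.196 in MCT+NI, 9.88 ± 0.267 in MCT and 5.48 ± 0.134 in sham mice (SD, n = 3 each). The MCT mean was 21.0-fold the sham mean, a log2 difference of 4.39 (standard error 0.142, 95% interval 4.07 to 4.72). Prnd was chosen by this difference, so the interval does not have its stated coverage and is no test. Apln, the gene of the vascular peptide apelin, had the next largest rise of all genes, 3.69. The deposited table holds no detection calls, so it is not known whether the sham values stood above background. These are measures of whole tissue, in which more cells of a type and more RNA per cell cannot be told apart.

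**Figure D1:**
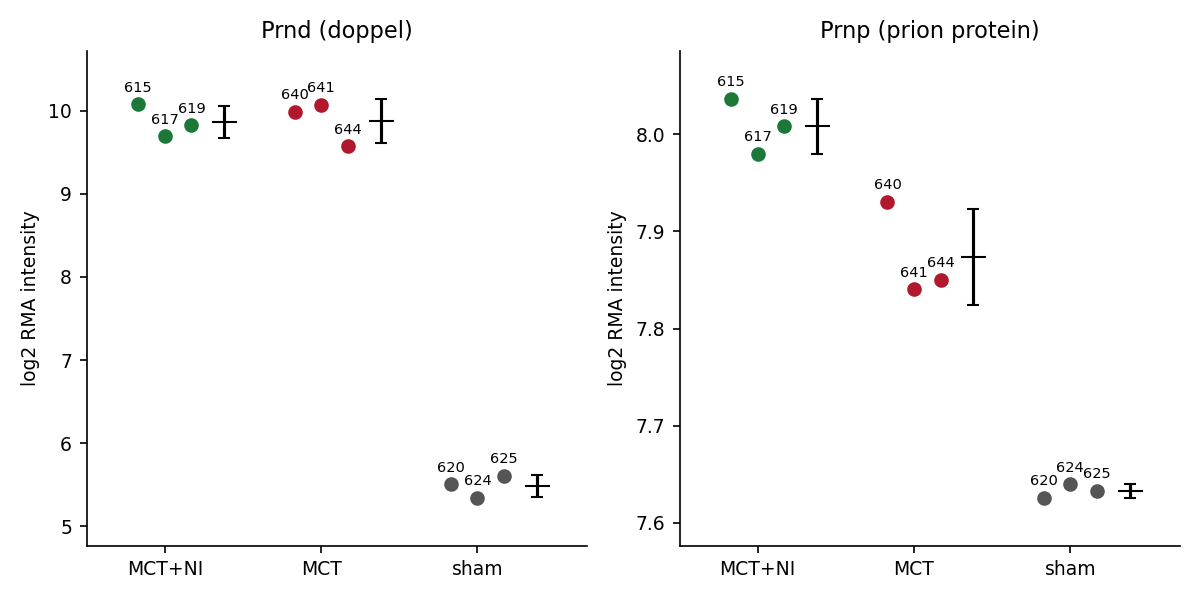
Log2 RMA intensity of Prnd (left) and Prnp (right) by group, each mouse as a dot (labelled with its number) and, to the right of each group, its mean and SD (n = 3). The vertical axes differ and do not start at 0. Prnd lies between 9.57 and 10.08 in all MCT-injected mice and between 5.34 and 5.61 in sham mice, while the 3 groups of Prnp lie at separate heights within a much narrower range.

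**Figure D2:**
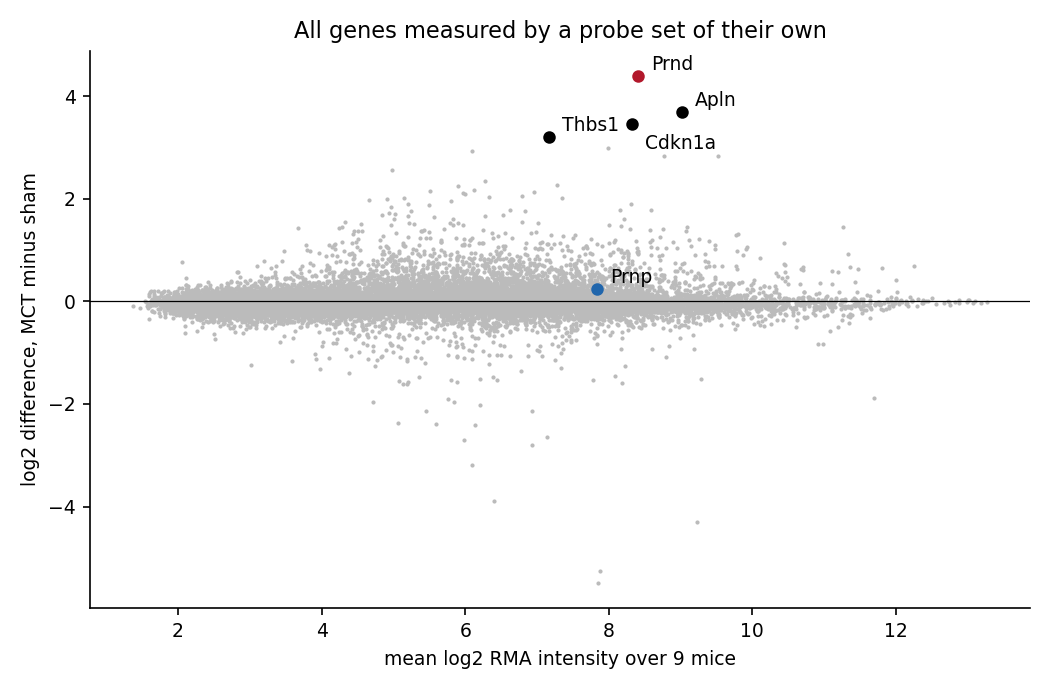
Log2 difference between MCT and sham mice (vertical axis) against the mean log2 RMA intensity over 9 mice (horizontal axis) for 18820 genes, 1 grey dot per gene. Prnd stands at 4.39, above Apln (3.69), Cdkn1a (3.45) and Thbs1 (3.20), and Prnp at 0.24.

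With the nutritional intervention, Prnd did not pass the test against MCT mice. The MCT+NI and MCT mice overlapped, and the log2 difference between them was -0.01 with a 95% interval of -0.33 to 0.31 (adjusted p = 1, limma). Against sham mice, the MCT+NI mice were 20.8-fold higher (log2 difference 4.38, 95% interval 4.06 to 4.70), with no overlap, as in 21% of all genes. The first of these comparisons shares the MCT arrays, and the second the sham arrays, with the comparison that chose the gene. Low sham values favoured the choice of Prnd, so its interval against sham mice does not have its stated coverage and is no test. The test against MCT mice likewise reuses values that chose the gene. MCT mouse 644 and MCT+NI mouse 615 had atrial transcripts while the other 4 MCT-injected mice had few, as given below. Without these 2 mice, Prnd stood at -0.27 between MCT+NI and MCT mice (unadjusted p = 0.0282 and adjusted p = 1, limma).

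Prnp had small differences between the groups, and its 3 groups did not overlap. MCT and sham mice failed to overlap in 21.9% of all genes, MCT+NI and sham mice in 21%, and MCT+NI and MCT mice in 6.08%. The share of genes in which all 3 groups stood apart was not counted. Log2 intensities of 8.04, 7.98 and 8.01 were measured in MCT+NI mice 615, 617 and 619. They were 7.93 in MCT mouse 640, 7.84 in 641 and 7.85 in 644, and 7.63 in sham mouse 620, 7.64 in 624 and 7.63 in 625. The order of the group means was MCT+NI (8.01 ± 0.0284), MCT (7.87 ± 0.0494) and sham (7.63 ± 0.00688, SD, n = 3 each). Prnp rose 1.18-fold in MCT over sham mice (log2 difference 0.24, standard error 0.041, adjusted p = 0.00918, limma). This passed an adjusted p under 0.05, as did 6.26% of all genes, 4.65% upward and 1.61% downward, and 19.7% had an unadjusted p under 0.05. With the mean of the atrial markers as a covariate the difference was 0.23 and did not pass (adjusted p = 0.0833). In MCT+NI over sham mice Prnp rose 1.30-fold (0.38, standard error 0.041, adjusted p = 0.00103, limma), where 6.26% of all genes passed, 4.52% upward and 1.75% downward, and 19.5% had an unadjusted p under 0.05. The SD among sham mice was small, and 637 genes had one at or under it.

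Between MCT+NI and MCT mice, Prnp stood 0.13 higher with the intervention (95% interval 0.04 to 0.23). The lowest MCT+NI mouse lay 0.05 above the highest MCT mouse. The unadjusted p was 0.00969 and the adjusted p was 1 in limma, so these neighbours in the order of levels did not pass the test across all genes. In this comparison 0 of 18820 genes passed after adjustment in limma (0%), while 545 (2.9%) had an unadjusted p under 0.05 and 69 had one at or under that of Prnp. The 2 groups did not overlap in 6.08% of all genes.

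None of the measured genes on either side of the pair passed the test against sham mice in limma. Since Prnd was chosen as the largest rise of all genes, its neighbours could not exceed it in MCT over sham mice, and their values are given only to describe the locus. Of the 3 genes nearest on each side, Erv3 on the side of Prnp and Rassf2 and Slc23a2 on the side of Prnd were measured, and Gm14281, Lamr1-ps1 and Gm31179 were not measured by a probe set of their own. Erv3, an endogenous retroviral gene, stood at 0.17 between MCT and sham mice (adjusted p = 0.426, limma). Its mean log2 level was low, at 3.17 (percentile 18.8 of all genes), and several mice shared 1 value. The side of Prnp is thus described by 1 weak probe set, which may miss a change. Rassf2, which encodes a protein that binds Ras, stood at 0.56 (adjusted p = 0.0673) and in MCT+NI against sham mice at 0.56 (adjusted p = 0.0654). Slc23a2, a carrier of vitamin C, stood at 0.23 (adjusted p = 0.134). All 3 had positive differences in both comparisons with sham mice. At an unadjusted p under 0.05 in limma, Rassf2 and Slc23a2 passed in both. Of all genes 19.7% did so in MCT and 19.5% in MCT+NI against sham mice. Rassf2 passed after adjustment between MCT and sham mice without sham mouse 625. The plot of the neighbouring genes gives these values in both comparisons.

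**Figure D3:**
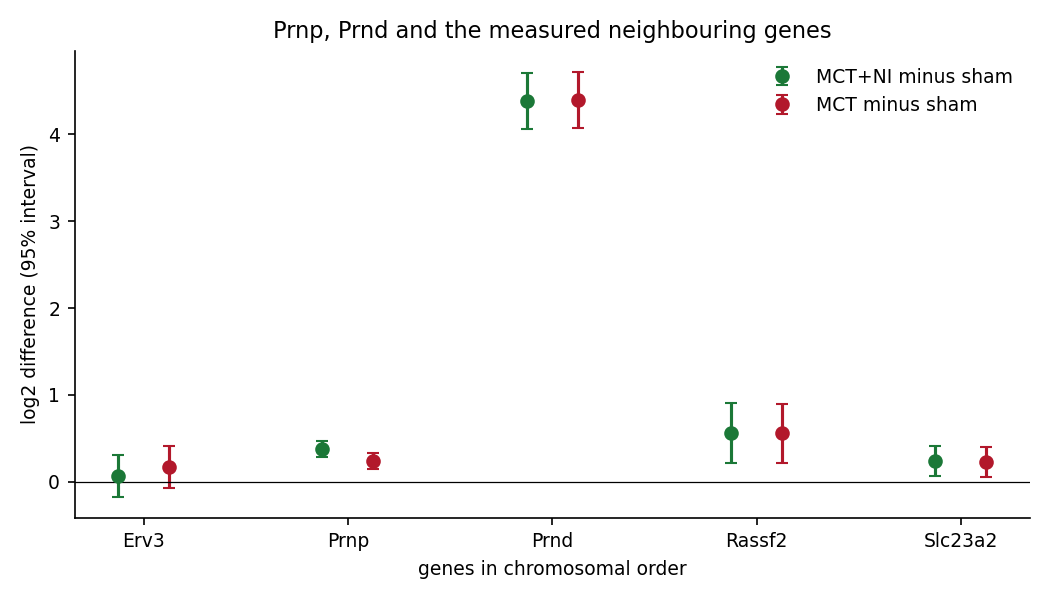
Log2 difference of MCT+NI minus sham (green) and MCT minus sham mice (red) with its 95% interval from limma, for Erv3, Prnp, Prnd, Rassf2 and Slc23a2 in the order of the chromosome. Both comparisons share the 3 sham mice, and the highest of the 3 neighbours is Rassf2, at 0.56 in both. The intervals of Prnd take no account of its choice, made by the red difference, whose sham mice the green one shares.

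The gene whose values were closest to those of Prnd was Apln. Closeness was the root mean square difference over the 9 mice between log2 values, each taken relative to the sham mean, and 9409 genes at or above the median level were compared. Apln differed from Prnd by 0.54 on this scale. It was followed by Cdkn1a, an inhibitor of the cell cycle induced by p53 (0.76), Thbs1, the matricellular thrombospondin 1 (1.06), Ccnd1, cyclin D1 (1.28), and Ch25h, a cholesterol hydroxylase (1.38). All of these have large differences between MCT and sham mice, at 12.9-fold for Apln and 11.0-fold for Cdkn1a. By Pearson's r, which ignores the size of a change, the first 5 were Ccnd1 (0.998), Meox1, a homeobox factor (0.998), Apln (0.997), Pls3, an actin-bundling protein (0.996), and Anxa1, a phospholipid-binding annexin (0.996). These r values rest on 9 mice in 2 clusters, the MCT-injected mice and the sham mice, and describe that split. Prnd, Apln and Ccnd1 were each lowest in mouse 617 among the MCT+NI mice (10.15 for Apln and 10.29 for Ccnd1) and in mouse 644 among the MCT mice (9.90 for Apln and 10.22 for Ccnd1). Among the sham mice Prnd and Ccnd1 were lowest in mouse 624 and Apln in mouse 620. The other genes closest by root mean square difference did not share both of these lowest MCT-injected mice. Cdkn1a was lowest in mice 615 (9.40) and 644 (9.39), Thbs1 in 619 (8.02) and 641 (8.09), and Ch25h in 617 (6.28) and 641 (6.93). Meox1, Pls3 and Anxa1, the others named by r, were lowest in mice 617 and 644. Genes chosen by neither measure, such as Kdr, Vtn and Cav1 described below, were lowest in mice 617 and 644 too. Low values in these mice were thus not particular to Prnd, Apln and Ccnd1. The share of all genes with this pattern was not counted.

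The genes most like Prnp by r were Sox18, a transcription factor of endothelium (0.973), AU021092, a gene known by its clone name (0.973), Icam2, an adhesion molecule of endothelium (0.961), Cdipt, the synthase of phosphatidylinositol (0.960), and Dusp11, an RNA phosphatase (0.960). Their levels followed the order MCT+NI, MCT, sham in the group means, as did Prnp, which their choice by r over the same mice favours. Dusp11 had the same value, 8.38, in all 3 MCT mice and did not pass between MCT and sham mice (adjusted p = 0.228, limma). Both choices by r were unstable when 1 mouse was left out. Between 0 and 3 of the 5 genes remained for Prnp, with 0 remaining without MCT+NI mouse 617, and 3 or 4 of the 5 remained for Prnd. By root mean square difference, the 5 genes closest to Prnd all remained whichever mouse was left out. This measure depends on the size of the rise by which Prnd was chosen, so other large rises stand close to it. Apln, Cdkn1a and Thbs1 held ranks 2, 3 and 4 of all genes by rise in MCT over sham mice. That the 5 genes remained is thus no separate sign of likeness.

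**Figure D4:**
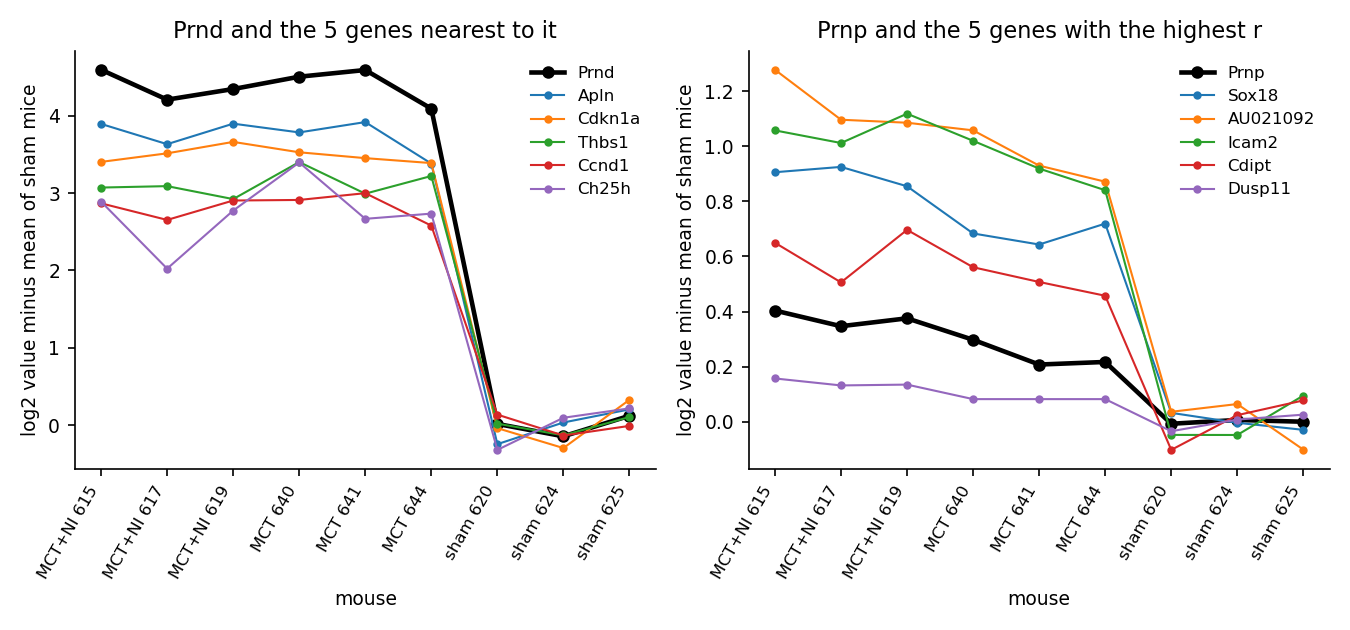
Log2 values relative to the sham mean in each of the 9 mice, for Prnd with the 5 genes of smallest root mean square difference (left) and for Prnp with the 5 genes of highest Pearson's r (right). Each line joins the values of 1 gene across separate mice. The left lines drop between the MCT-injected and the sham mice, and the right lines have their highest group means in the MCT+NI mice.

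Proteases that cut or shed the prion protein, and the proteins that steer them, were in part higher in MCT mice. Of 15 measured, 7 rose and 0 fell between MCT and sham mice, with a list median of 0.30 against -0.02 over all genes, of which 4.65% rose and 1.61% fell. Among them were Adam8, a metalloprotease of leukocytes (log2 difference 0.47, adjusted p = 0.00776), Tspan17 (0.42, adjusted p = 0.00853) and Tspan14 (0.40, adjusted p = 0.0202), tetraspanins that escort Adam10, and Capn2, a calcium-dependent protease (0.31, adjusted p = 0.0100). Adam10, the main sheddase of the prion protein, rose by 0.30 (adjusted p = 0.0289). The count of 7 was 4 without sham mouse 620 or 624, without MCT mouse 640 or 641, or without both 644 and 615, 3 in a fit of the 6 mice compared, and 0 with the atrial covariate. Adam10 was named for its role after its value was seen. In MCT+NI against sham mice 6 rose, against 4.52% of all genes.

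Of 15 binding partners of the prion protein 5 rose and 0 fell, with a list median of 0.07 (4.65% of all genes rose). Vtn, the adhesive glycoprotein vitronectin, rose 2.62-fold (log2 difference 1.39, standard error 0.121, adjusted p = 0.000348, limma). Lamc1, a laminin chain, rose by 0.69 (adjusted p = 0.000603), Cav1, the coat protein of caveolae, by 0.56 (adjusted p = 0.000203) and Itgb1, an integrin chain, by 0.31 (adjusted p = 0.00332), a call lost when the mean of its probe sets was used. The fifth was Fyn, a kinase that acts downstream of the prion protein (0.64, adjusted p = 0.00597). Rpsa, a laminin receptor, and Stip1, a co-chaperone, did not pass, and neither did the receptor Lrp1 (0.33, adjusted p = 0.0864). In MCT+NI against sham mice 5 partners rose and Ncam1, a neural adhesion molecule, fell, against 4.52% and 1.75% of all genes. Of 24 measured genes of GPI anchor assembly 0 passed between MCT and sham mice in limma, with a list median of 0.01, and Pigc (0.32, adjusted p = 0.101) and Pigq (0.18, adjusted p = 0.102) had the smallest p. At an unadjusted p under 0.05, 5 of the 24 passed, against 19.7% of all genes, and 2 passed after adjustment without sham mouse 625. Of 18 genes of copper handling 0 passed between MCT and sham mice in limma, with a list median of 0.04, 6 had an unadjusted p under 0.05, and Steap4, a metalloreductase, stood at 0.72 (adjusted p = 0.071) and Atox1, a copper chaperone, at 0.23 (adjusted p = 0.0824). Without sham mouse 625 or MCT+NI mouse 617, 1 of the 18 passed. In MCT+NI against sham mice, where 4.52% of all genes rose, Atox1 alone of the 18 rose, by 0.28 (adjusted p = 0.0445).

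Some transcripts of endothelium were higher in the same mice. Of 16 endothelial markers 8 rose and 0 fell between MCT and sham mice, against 4.65% and 1.61% of all genes, with a list median of 0.49. The other 8 did not pass, among them Vwf (-0.67) and Tek (-0.47). Robo4, a guidance receptor of vessels, rose 2.16-fold (adjusted p = 0.000638, limma), Icam2 1.90-fold (adjusted p = 0.000103), Erg, an ETS factor of endothelium, 1.72-fold (adjusted p = 0.00154), and Sox18 1.60-fold (adjusted p = 8.24e-05). In MCT+NI against sham mice 9 rose and Tek, the receptor Tie2, fell, against 4.52% and 1.75% of all genes. The mean log2 level of the 16 markers was 8.13 to 8.30 in MCT+NI, 8.16 to 8.25 in MCT and 7.79 to 7.93 in sham mice. Within both MCT-injected groups the mice had the same order for this mean and for Prnd. Mouse 641 (8.25) was above 640 (8.22) and 644 (8.16), and mouse 615 (8.30) was above 619 (8.21) and 617 (8.13). Among the sham mice, mouse 625 was highest for both, and mice 620 and 624 stood in opposite order. The order of Prnd was not particular to this list. The mean of the VEGF receptor and angiogenic list below had it in both MCT-injected groups. Means of markers of smooth muscle and pericytes, fibroblasts, endocardium and lymphatic endothelium had it in MCT+NI but not in MCT mice. So did means of the proteases and of the binding partners of the prion protein. For smooth muscle and pericytes, mouse 644 was also lowest of the MCT mice. Orders of so few mice can match by chance. The part of endothelial content in the difference of Prnd was not tested.

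Of 20 genes of VEGF receptors and angiogenic endothelium 9 rose and 1 fell between MCT and sham mice, against 4.65% and 1.61% of all genes, with a list median of 0.23. Beside Apln, Angpt2, a ligand of the Tie2 receptor, rose 2.41-fold (adjusted p = 0.000259) and Nrp2, a coreceptor of VEGF, 2.29-fold (adjusted p = 0.000262). Flt1, the receptor VEGFR1, fell by 0.71 on the log2 scale (adjusted p = 0.000822). Kdr, which encodes VEGFR2, had a difference of 0.45 that did not pass (adjusted p = 0.0564), and in MCT+NI against sham mice it rose by 0.57 (adjusted p = 0.0205). In MCT+NI against sham mice 9 of the 20 rose and 1 fell, against 4.52% and 1.75% of all genes. With the atrial covariate 5 rose between MCT and sham mice. Kdr was named after its values were seen. Between MCT+NI and MCT mice 0 members of any of the 16 lists passed in limma. Of the 178 measured members 5, Prnp among them, had an unadjusted p under 0.05, against 2.9% of all genes. The plot of the gene lists gives the members of each list.

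**Figure D5:**
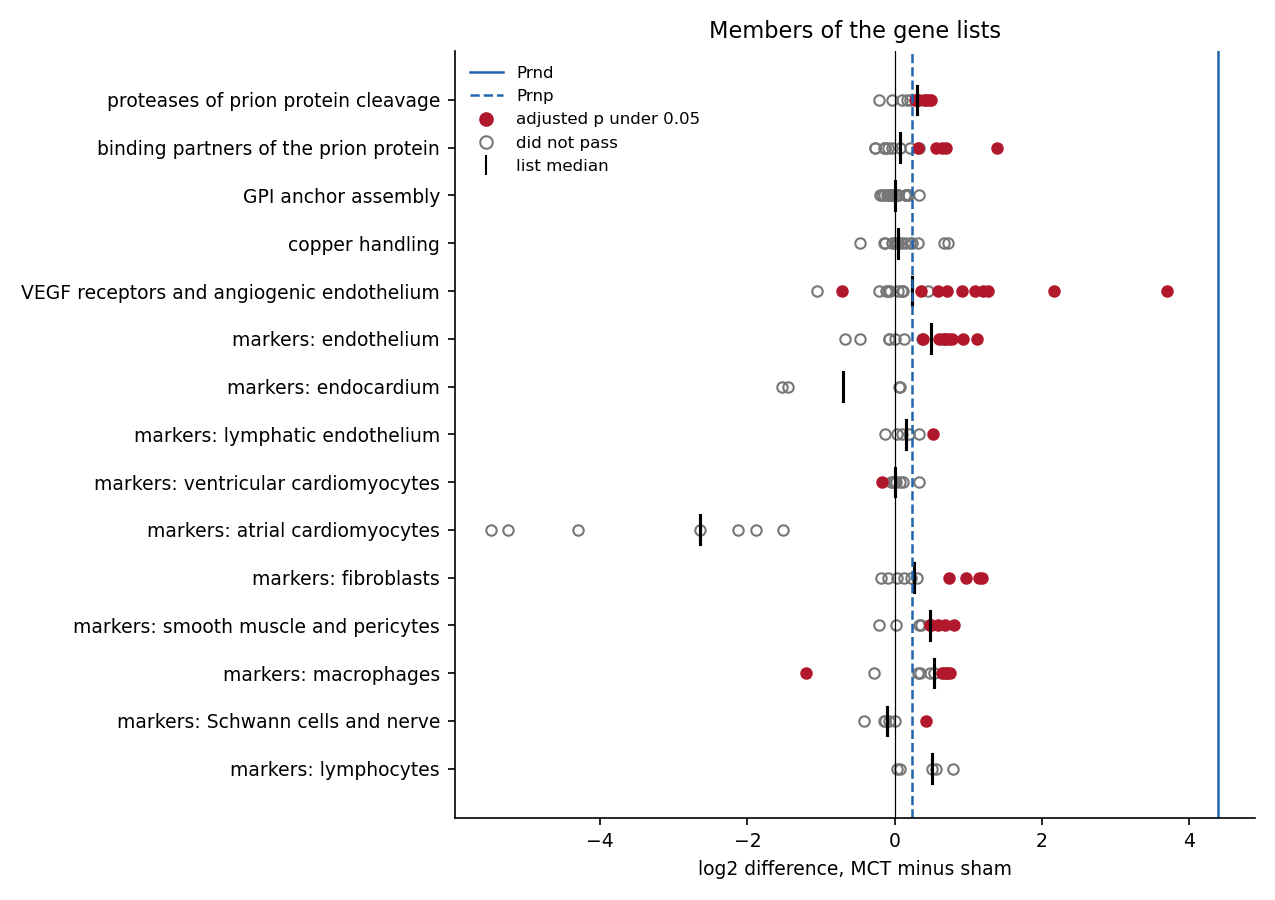
Log2 difference between MCT and sham mice for the measured members of 15 gene lists, 1 row per list. Filled red dots passed an adjusted p under 0.05 in limma, open dots did not, black bars are list medians, and blue lines mark Prnd (solid, 4.39) and Prnp (dashed, 0.24).

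Markers of other cells moved with the groups as well. The counts below are for MCT against sham mice, where 4.65% of all genes rose and 1.61% fell. The mean log2 level of 9 measured markers of ventricular cardiomyocytes lay between 11.91 and 12.03 in all mice. Of these markers 1, the calcium release channel Ryr2, fell by 0.17 (adjusted p = 0.0234, limma, a call lost in 8 of 18 alternative settings). Of 10 markers of smooth muscle and pericytes 6 rose, among them Cspg4 (1.75-fold), Pdgfrb (1.39-fold), Rgs5 (1.60-fold) and Kcnj8 (1.39-fold). With the atrial covariate 2 of the 10 rose, and Rgs5 and Kcnj8 no longer passed. Of 10 fibroblast markers 4 rose, namely Col1a2 (1.66-fold), Col1a1 (1.96-fold), Postn (2.22-fold) and Col3a1 (2.26-fold), and 2 rose without sham mouse 624 or MCT mouse 640 or 641. With the atrial covariate 2 fibroblast markers rose as well, and of the 4 named Col1a2 alone passed. Of 11 macrophage markers 4 rose, such as Lyz2 (1.62-fold), Cd68 (1.63-fold) and Itgam (1.68-fold), and Cd163, the fifth that passed, was at 0.435-fold. The count of 4 was 0 with the atrial covariate and 0 without sham mouse 624, MCT mouse 640 or 644, or both 644 and 615, and 1 without sham mouse 620. Flt4 was the only 1 of 6 lymphatic markers to rise (1.43-fold), with 2 rising without sham mouse 620 and 0 with the atrial covariate, and Gfra3 the only 1 of 6 markers of Schwann cells and nerve (1.34-fold, likewise lost in 8 settings). Of 5 lymphocyte markers 0 passed in limma (0 at an unadjusted p under 0.05, against 19.7% of all genes), with Ptprc at 0.51 (adjusted p = 0.270) and Cd3e at 0.80 (adjusted p = 0.432). The part of these cells in the values of Prnd and Prnp was not tested.

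Levels of atrial transcripts differed between the mice, and whether the samples held atrial tissue was not tested. Over 7 atrial markers, mean log2 levels of 9.12, 6.33 and 5.67 were measured in MCT+NI mice 615, 617 and 619. They were 5.56 in MCT mouse 640, 5.91 in 641 and 10.63 in 644, and 10.13 to 11.01 in sham mice. Mice 615 and 644 were thus closer to the sham mice than the other 4 were. In limma 0 of the 7 markers passed after adjustment between MCT and sham mice, with Bmp10 at -5.48 (adjusted p = 0.169) and Stard10 at -1.52 (adjusted p = 0.140). All 7 had an unadjusted p under 0.05, against 19.7% of all genes. Of 4 endocardial markers 0 passed in limma, and 2 had an unadjusted p under 0.05, against the same 19.7%. Npr3 (-1.53, adjusted p = 0.141) and Cytl1 (-1.45, adjusted p = 0.214) had negative differences. Without MCT mouse 644, Bmp10, Stard10, Npr3 and Cytl1 passed. Prnd was highest of all 9 mice in mouse 615 (10.08) and lowest of the 6 MCT-injected mice in mouse 644 (9.57), against 9.69 to 10.07 in the 4 mice with few atrial transcripts. With the atrial mean as a covariate, its difference between MCT and sham mice was 4.27, against 4.39 without it.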

How the data were processed

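RNA of the right ventricle of 9 mice was measured on 1 array each. The deposited values are log2 intensities per probe set, made by the authors with RMA (version not given in the sources used here). The methods name redefined probe sets, but the table holds 35556 rows with the manufacturer's probe set numbers, of which 21218 have 1 gene, 1881 several and 12457 none. No further normalization was done, and array medians lay between 4.77 and 4.79. Genes were represented by their brightest probe set (18820 genes, 1386 of them with several). In 12042 genes at least 2 mice shared 1 value. Groups came from the labels, and each array is a separate animal, whose number limits the precision. All 9 mice were fitted in limma 3.58.1 (R 4.3.3) with 1 mean per group, empirical Bayes with an intensity trend, two-sided tests and Benjamini-Hochberg adjustment over 18820 genes. A gene was called at an adjusted p under 0.05. The script was tested on simulated data.

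The 2 genes and the 16 gene lists (193 symbols, 178 measured) were chosen with earlier results of these data known. Named were both genes, those most like them (5 per measure, among genes at or above the median level), the next largest rise, 3 neighbours on each side, and up to 4 called members of each list, or 2 where none was called. Fyn, Adam10, Lrp1, Rpsa, Stip1, Ncam1, Tek, Vwf and Kdr lie outside this rule and were named after their values were seen. Sprn shares its only probe set with another gene and is not reported. Neighbour order and promoter windows are from RefSeq (GRCm38.p6). Alternatives covered 18 settings: probe set choice, trend, normalization, filter, rows tested, mice fitted, an atrial covariate and left-out mice. The labels and the methods differ on how long the diets preceded the injections and on RNA extraction.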

Additional observations from a re-analysis of the deposited data

How the results depend on the processing

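Prnd stood at 4.27 to 4.55 between MCT and sham mice over 18 alternative settings, which use the values that chose it. Prnp kept its direction in all comparisons. With the atrial covariate Prnp stood at 0.23 between MCT and sham mice and no longer passed (adjusted p = 0.0833), while leaving out 1 mouse gave adjusted p of 0.0131 to 0.0400. The cause was not tested. Between MCT+NI and MCT mice the Prnd difference ranged from -0.17 to 0.08 when 1 mouse was left out, and its sign turned when MCT mouse 640 (0.041), MCT mouse 641 (0.084), MCT+NI mouse 617 (0.074) or MCT+NI mouse 619 (0.0054) was left out. Genes called between MCT and sham mice numbered 501 with the atrial covariate and 676 to 1196 with 1 mouse left out (676 without MCT mouse 640 and 767 without 641), against 1179. Between MCT+NI and sham mice they numbered 366 with the covariate, 720 without mice 644 and 615, and 625 to 1183 with 1 mouse left out (682 without MCT+NI mouse 615 and 625 without 619), against 1179. No paired analysis was possible because the mouse numbers in the labels are not shared between groups. The number of mice, 3 per group, limits the precision. With no detection calls in the table, the level of Prnd in sham mice has no known distance from background.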
